A study of Mus musculus with 56 samples.

Results

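Hepatic expression of 10 genes of monocyte recruitment and inflammatory signalling, of 45513 genes in the count files, was examined in 56 mice: Ccr2, Cx3cr1, Ly6c2, Lyz2, Csf1, Ccl2, Cxcr4, Il1a, Il1b and Cd40. They were taken by gene symbol, with the Ensembl identifiers of GENCODE vM21 on GRCm38, by a rule that uses symbols and no expression value. The 10 symbols themselves were chosen with earlier results of these data known. The paper had already named Cd40 and Il1a among the liver genes that imatinib regulated favorably. All 10 were found and all 10 passed the filter on low counts that left 14314 genes. The mice were female APOE*3Leiden.CETP mice, a transgenic strain with a human-like lipoprotein metabolism, with a stated age of 9 to 14 weeks. In every group they ate a Western-type diet with 15% cacao butter and 0.15% cholesterol. In the paper a run-in on this diet came before treatment, so control and drug mice were older when their livers were taken. Groups of 8 mice received vehicle by gavage (control), imatinib at 150 mg/kg in 2 gavages per day, nilotinib at 10 or 30 mg/kg, ponatinib at 3 or 10 mg/kg, each in 1 drug gavage per day, or L-NAME, an inhibitor of nitric oxide synthases, at 0.12 to 0.2% in the drinking water with vehicle by gavage. The paper, which does not describe the L-NAME group, states that all mice but those on imatinib received the second daily gavage as vehicle. Livers of the control and drug groups were taken after 16 weeks. The duration of L-NAME treatment is not given in the sources used here. Imatinib, nilotinib and ponatinib are tyrosine kinase inhibitors given against chronic myeloid leukemia. No wild-type or chow-fed mice were analysed here.

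Monocytes are white blood cells made in the bone marrow that enter tissues and can become macrophages there. Ccl2 draws monocytes that carry its receptor Ccr2 out of the marrow and into tissue, and Cx3cr1, the receptor of the membrane-bound chemokine Cx3cl1, is carried by patrolling monocytes and by some tissue macrophages. The liver also holds its own resident macrophages, the Kupffer cells, and Csf1 is a growth factor on which monocytes and macrophages depend. Il1a and Il1b are both interleukin-1 cytokines that act through the same receptor, and macrophages are a source of both.

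The samples were whole liver, in which fewer cells of a type and less RNA per cell cannot be told apart. Lyz2 is carried by Kupffer cells, macrophages and granulocytes as well as monocytes, and Cxcr4, Csf1 and Cd40 are also made by other cells, so none of the values below belongs to monocytes alone. Reads counted on genes ranged from 5342379 to 17996732 per mouse in 55 mice and reached 97473341 in 1 L-NAME mouse, while the shallowest library, of a nilotinib 10 mg/kg mouse, was also the least like its group. The share of uniquely aligned reads outside annotated genes was 7.97% ± 0.42 in control mice (SD, n = 8). It was higher with each treatment (exact permutation test, two-sided, adjusted p = 0.0466 with ponatinib 3 mg/kg and 0.00131 or less in the other 5 groups), though with all reads as denominator ponatinib 3 mg/kg no longer passed (exact permutation test, adjusted p = 0.0558). The share reached 11.0% ± 1.99 with ponatinib 10 mg/kg and 10.0% ± 1.82 with imatinib (SD, n = 8). The labels give no sequencing date or batch.

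Promoters of 4 of the genes are shown so that a reader can see what DNA lies before them. RefSeq promoters on GRCm38.p6, from 250 bases before to 50 bases after the start, matched 8 of the 10 genes; none is shown for Ccl2 or Cd40. Both strands were searched for AGGAAGT, the core of the sequence bound by factors of the ETS family such as PU.1, and for the NF-kappa-B motif. AGGAAGT was present in 9.35% and the NF-kappa-B motif in 4.51% of the 32851 promoters searched, which did not cover every chromosome. No promoter held overlapping matches of both. Among the 8 genes, Lyz2 and Ly6c2 held AGGAAGT and Csf1 held the NF-kappa-B motif. Ccr2, Cx3cr1, Cxcr4, Il1a and Il1b held neither, and of these only Il1a is shown. In the lines below each sequence runs 5′ to 3′ on the gene's own strand, the minus strand in all 4 genes, and the capitals mark the matches. The match in Lyz2 begins at -100 from the start, on the opposite strand as ACTTCCT. Lyz2 and Il1a were lower with imatinib, Csf1 and Il1a with ponatinib 10 mg/kg, and Ly6c2 passed the test in no group, as described below. A match of letters is not a bound site. The windows are chr10:117282223-117282522 for Lyz2, chr3:107760420-107760719 for Csf1, chr2:129309923-129310222 for Il1a and chr15:75111888-75112187 for the first of 2 starts of Ly6c2.
Lyz2: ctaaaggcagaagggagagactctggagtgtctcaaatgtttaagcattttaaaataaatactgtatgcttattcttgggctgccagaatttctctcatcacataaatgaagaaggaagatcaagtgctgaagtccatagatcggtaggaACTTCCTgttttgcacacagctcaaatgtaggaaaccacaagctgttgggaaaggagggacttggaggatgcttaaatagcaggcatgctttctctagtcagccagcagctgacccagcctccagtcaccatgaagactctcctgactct
Csf1: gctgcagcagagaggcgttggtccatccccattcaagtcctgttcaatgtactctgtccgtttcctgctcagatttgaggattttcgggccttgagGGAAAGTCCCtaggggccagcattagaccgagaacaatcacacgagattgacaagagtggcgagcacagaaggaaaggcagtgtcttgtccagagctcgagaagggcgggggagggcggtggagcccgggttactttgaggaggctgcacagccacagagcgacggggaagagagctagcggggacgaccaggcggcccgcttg
Il1a: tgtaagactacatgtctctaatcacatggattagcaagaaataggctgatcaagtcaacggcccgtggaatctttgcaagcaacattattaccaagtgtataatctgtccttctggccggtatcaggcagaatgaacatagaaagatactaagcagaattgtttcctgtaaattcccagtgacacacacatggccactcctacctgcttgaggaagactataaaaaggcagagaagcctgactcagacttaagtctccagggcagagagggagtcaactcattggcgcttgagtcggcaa
Ly6c2: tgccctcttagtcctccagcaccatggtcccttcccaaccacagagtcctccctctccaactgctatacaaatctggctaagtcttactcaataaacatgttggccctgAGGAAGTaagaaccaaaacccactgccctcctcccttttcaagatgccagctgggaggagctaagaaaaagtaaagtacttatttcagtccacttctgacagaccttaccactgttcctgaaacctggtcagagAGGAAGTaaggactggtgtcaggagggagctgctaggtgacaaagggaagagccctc

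Lyz2 (ENSMUSG00000069516, chr10:117277331-117282321), the lysozyme of macrophages and granulocytes, was by far the most abundant of the 10 genes in control mice, at 198 ± 77.9 CPM per kilobase of exon (SD, n = 8 mice; CPM, counts divided by the TMM-scaled size of each library). Ccl2, Il1a and Csf1 followed at 6.08 ± 3.4, 5.51 ± 1.84 and 5.01 ± 1.63 CPM per kilobase, which differed by less than the spread between mice. Cxcr4 stood at 3.08 ± 1.05, Il1b at 2.18 ± 1.07, Cx3cr1 at 1.54 ± 0.858, Ccr2 at 1 ± 0.543, Ly6c2 at 0.735 ± 0.484 and Cd40 at 0.677 ± 0.306 CPM per kilobase, and each neighbouring pair of these overlapped within 1 SD. Among the genes tested, Lyz2 lay at percentile 96.6 of mean CPM in control mice, Csf1 at 65.9 and the other 8 between 15.8 and 43.1. Ly6c2 and Lyz2 lie next to the near-identical copies Ly6c1 and Lyz1, and reads with several matching places were not counted, which leaves the levels of both uncertain.

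**Figure D1:**
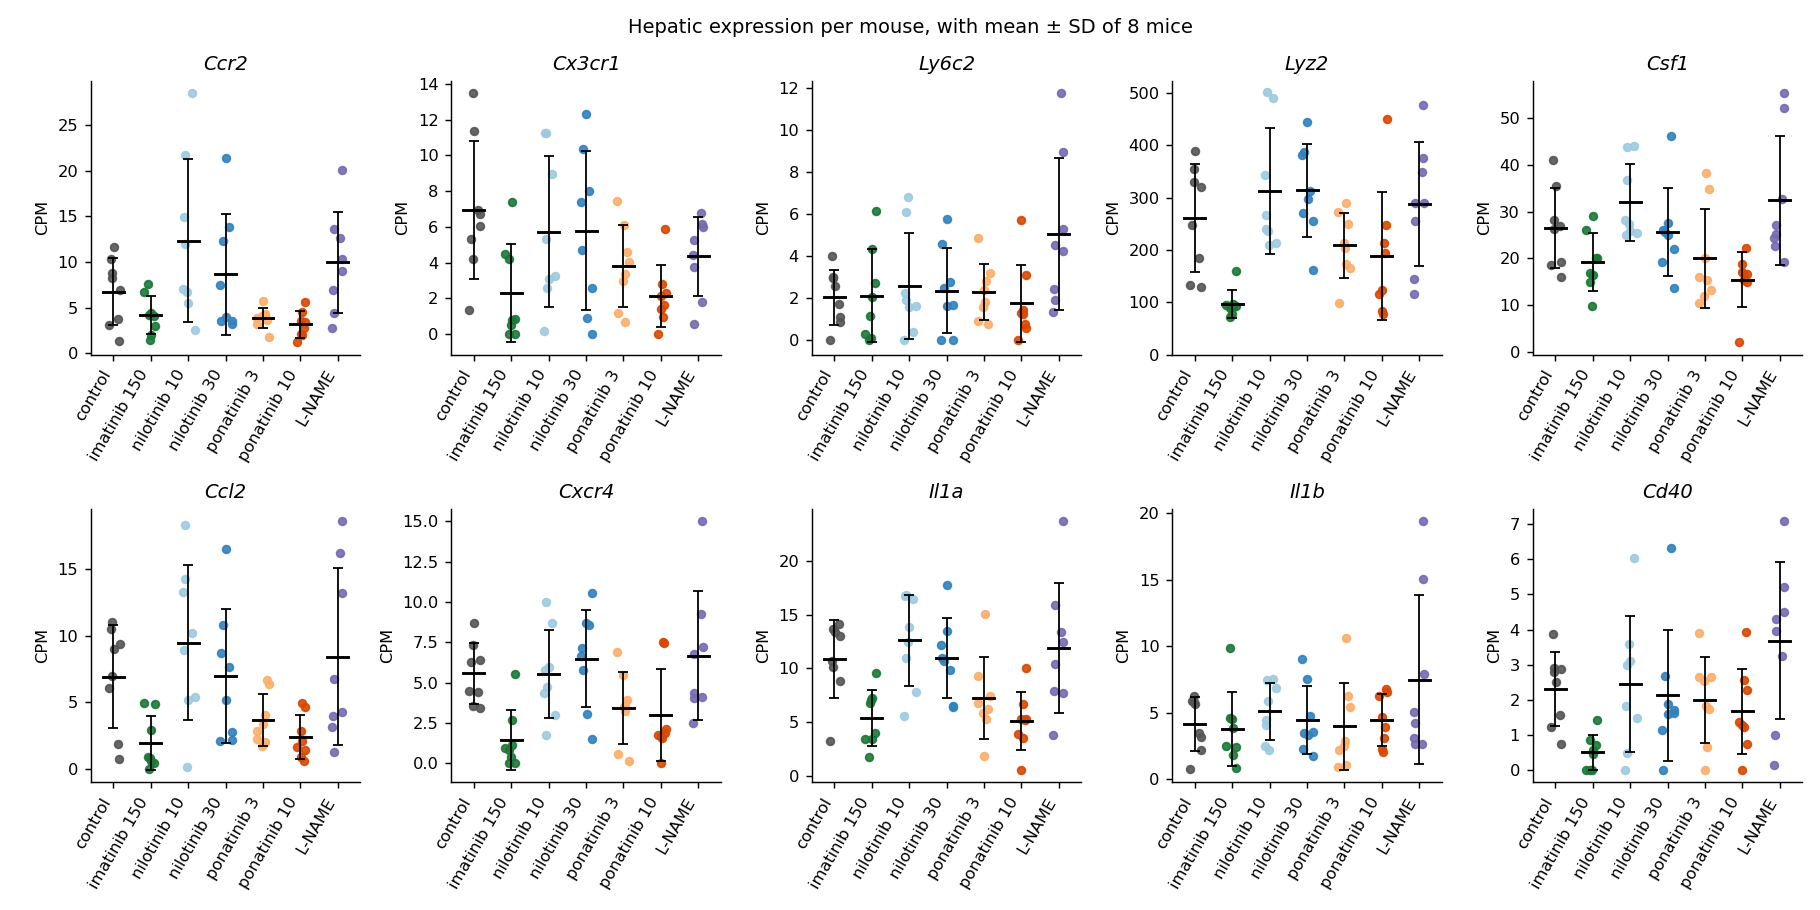
Expression of the 10 genes in each of 56 mice, in CPM after TMM scaling, by group (8 mice each; points are mice, bars mean ± SD). Lyz2 lay between 71.6 and 160 CPM in imatinib mice and between 129 and 390 CPM in control mice, and Il1b and Ly6c2 overlapped broadly in all groups.

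With imatinib, 5 of the 10 genes were lower than in control mice at an unadjusted p-value below 0.01 and none was higher: Lyz2, Cxcr4, Ccl2, Il1a and Cd40. The same cut-off was passed by 12.9% of the 14314 genes tested. With an adjusted p-value below 0.05, passed by 10.3% of all genes, 4 of the 10 were left, since Cd40 had an adjusted p = 0.0519. The median log2 fold change was -1.22 over the 10 genes and -0.02 over all genes tested, and 9 of the 10 lay below 0. Imatinib was compared with control in edgeR's quasi-likelihood test over all 56 mice, and all comparisons with control share the same 8 control mice.

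Lyz2 measured 71.6, 92.6 and 160 CPM (lowest, median and highest of 8 imatinib mice) against 129, 284 and 390 CPM in control mice. In 7 of the 8 imatinib mice it lay below every control mouse, and it decreased by 62.9% (log2 fold change -1.43 ± 0.27 SE, adjusted p = 0.000359). The eighth mouse, at 160 CPM, lay above the lowest control mice.

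Cxcr4 (ENSMUSG00000045382, chr1:128588199-128592293), the receptor of Cxcl12, measured 0, 0.886 and 5.55 CPM with imatinib and 3.43, 5.36 and 8.68 CPM in control mice. Again 7 of 8 imatinib mice lay below every control mouse, and the gene decreased by 74.3% (log2 fold change -1.96 ± 0.59 SE, adjusted p = 0.0223). No read was counted in 2 of the imatinib mice. A count of 0 allows up to 3 reads, between 0.276 and 0.422 CPM at the depth of these libraries, and this covers counting error only.

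Ccl2 (ENSMUSG00000035385, chr11:82035571-82037453), the chemokine that recruits monocytes, measured 0, 0.817 and 4.9 CPM with imatinib and 0.687, 7.98 and 11 CPM in control mice. It decreased by 72.5% (log2 fold change -1.86 ± 0.59 SE, adjusted p = 0.0324). The groups overlapped, since 2 control mice, at 0.687 and 1.83 CPM, lay within the range of the imatinib mice.

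Il1a (ENSMUSG00000027399, chr2:129299610-129309972) measured 1.82, 5.37 and 9.57 CPM with imatinib and 3.23, 11.9 and 14.1 CPM in control mice. It decreased by 50.1% (log2 fold change -1 ± 0.34 SE, adjusted p = 0.0494), and 1 imatinib mouse lay below every control mouse. When that share of reads outside genes was put in the model, the log2 fold change was -0.92 and no longer passed.

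Cd40 (ENSMUSG00000017652, chr2:165055627-165072948), a receptor through which T cells activate macrophages and B cells, measured 0, 0.506 and 1.43 CPM with imatinib and 0.728, 2.64 and 3.86 CPM in control mice. It was below every control mouse in 6 of 8 imatinib mice and decreased by 78.3% (log2 fold change -2.2 ± 0.76 SE). It is the gene with the fewest reads of the 10, 1489 in all 56 mice together, and 3 imatinib mice had none. In a fit of the imatinib and control mice alone it fell to the filter on low counts, so that 9 of the 10 genes were tested and 4 called.

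The receptors Ccr2 and Cx3cr1 did not pass the cut-off with imatinib. Cx3cr1 (ENSMUSG00000052336, chr9:119901616-120069879) measured 0, 0.827 and 7.38 CPM with imatinib and 1.35, 6.4 and 13.5 CPM in control mice. Its log2 fold change was -1.61 ± 0.67 SE (adjusted p = 0.119), with 5 of 8 imatinib mice below every control mouse, and limma voom put it past the cut-off at a log2 fold change of -2.97. Ccr2 (ENSMUSG00000049103, chr9:124101950-124113557) measured 1.49, 4.18 and 7.56 CPM against 1.37, 7.59 and 11.6 CPM, a log2 fold change of -0.70 with a 95% confidence interval from -1.54 to 0.13. The groups overlapped over most of their range.

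Csf1 (ENSMUSG00000014599, chr3:107741048-107760469) had a log2 fold change of -0.47 (95% confidence interval -1.01 to 0.07) with imatinib, at 9.73, 18.4 and 29.1 CPM against 16.1, 26.6 and 41 CPM in control mice. It passed with limma voom and sample quality weights, at -0.62. Il1b (ENSMUSG00000027398, chr2:129364570-129371139), the neighbour of Il1a on chromosome 2, measured 0.857, 3.19 and 9.85 CPM with imatinib and 0.808, 4.59 and 6.25 CPM in control mice. Its log2 fold change was -0.14, with an interval from -1.04 to 0.77. Ly6c2 (ENSMUSG00000022584, chr15:75108158-75111970), an antigen abundant on classical monocytes, measured 0, 1.59 and 6.14 CPM with imatinib against 0, 2.12 and 3.98 CPM, a log2 fold change of 0.04 with an interval from -1.48 to 1.55. For Ly6c2 the interval spans changes of the size seen for Lyz2.

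**Figure D2:**
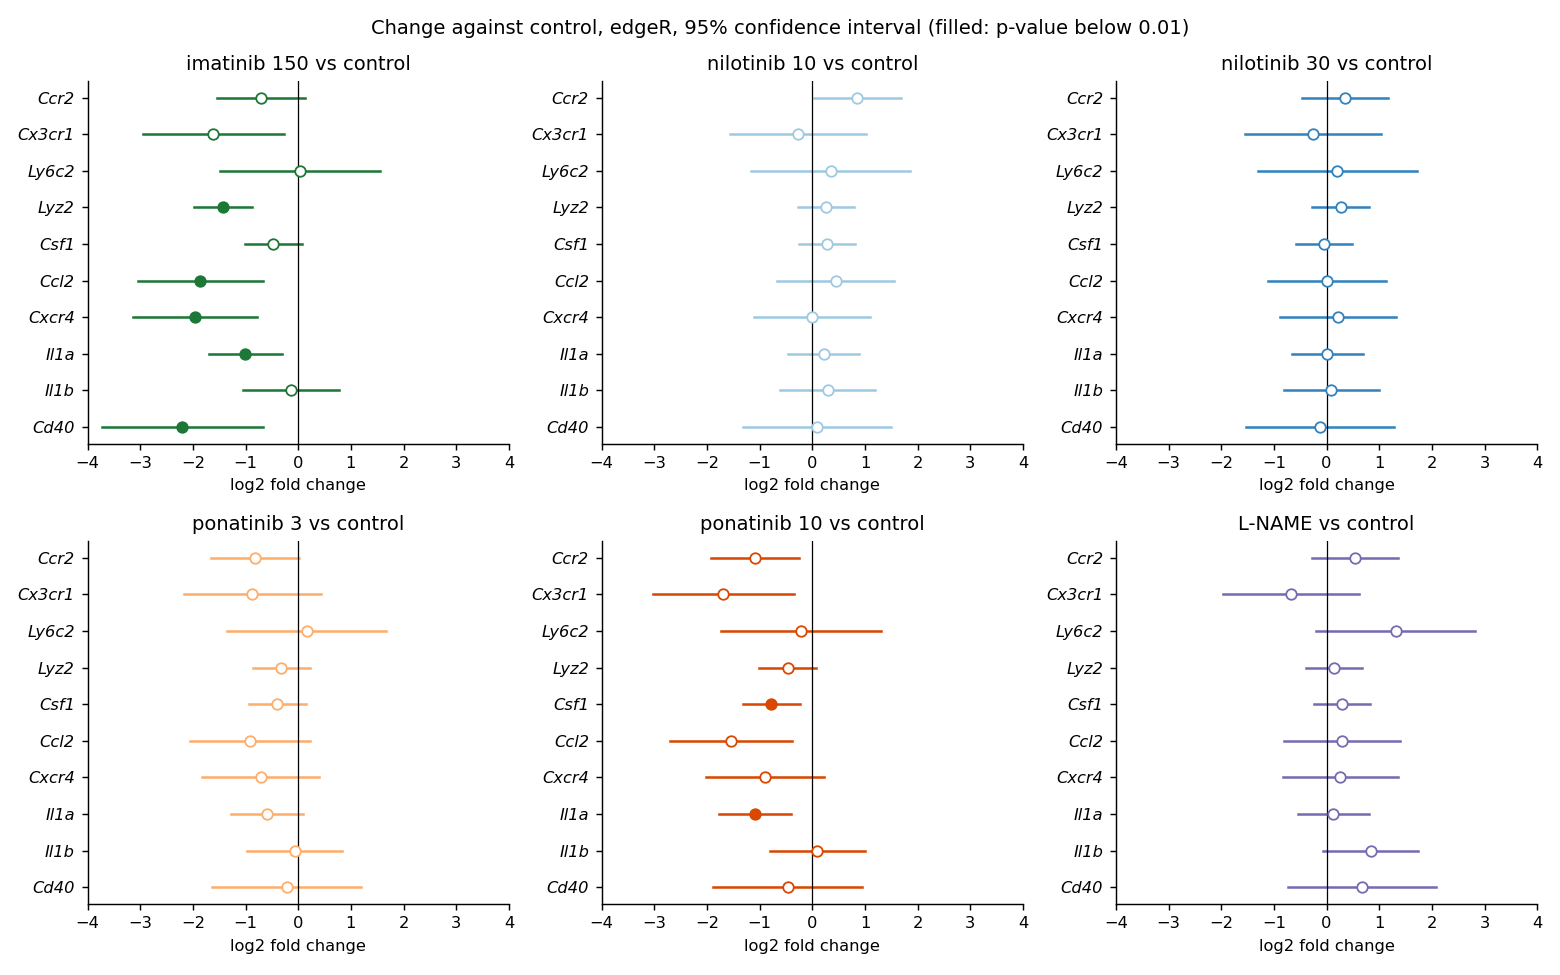
Log2 fold change of the 10 genes against control in 6 treated groups (edgeR, 8 mice per group), with 95% confidence intervals; filled points have an unadjusted p-value below 0.01. Filled points appear for imatinib (5 genes) and ponatinib 10 mg/kg (2 genes) only, all below 0.

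Ponatinib at 10 mg/kg lowered Il1a and Csf1, 2 of the 10 genes at an unadjusted p-value below 0.01, where 15% of all genes tested passed, and both kept an adjusted p-value below 0.05, where 13.1% passed. The share of the 10 genes called thus lay near that of all genes. Their median log2 fold change was -0.84 against -0.01 over all genes tested, with 9 of 10 below 0. The number called was 5 with DESeq2, 4 with limma voom, 4 without a filter on low counts and 1 when reads outside genes were modelled as a covariate.

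Il1a measured 0.57, 5.26 and 10 CPM with ponatinib 10 mg/kg against 3.23, 11.9 and 14.1 CPM in control mice and decreased by 53.1% (log2 fold change -1.09 ± 0.35 SE, adjusted p = 0.0257). The median ponatinib mouse lay below all control mice but 1. When reads outside genes were modelled as a covariate, its log2 fold change was -0.99 and did not pass.

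Csf1 measured 2.04, 16.7 and 22.2 CPM with ponatinib 10 mg/kg against 16.1, 26.6 and 41 CPM and decreased by 41.6% (log2 fold change -0.78 ± 0.27 SE, adjusted p = 0.0463). The lowest value came from 1 mouse that stood far below the other 7, which started at 14.9 CPM. Without that mouse the log2 fold change was -0.61, and neither this fit nor one of the 2 groups alone (-0.77) passed the cut-off.

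Ccl2 came next, at 0.584, 1.86 and 4.96 CPM with ponatinib 10 mg/kg and a log2 fold change of -1.54 ± 0.58 SE (adjusted p = 0.0669). Ccr2 (log2 fold change -1.09, adjusted p = 0.0751) and Cx3cr1 (-1.69, adjusted p = 0.0844) also fell short, and each of the 3 passed in 2 or more of the other fits. Cxcr4 lay below every control mouse in 6 of 8 ponatinib mice, but 2 mice at 7.45 and 7.51 CPM lay near the highest control mouse, and its log2 fold change was -0.90 (95% confidence interval -2.02 to 0.22). With limma voom Cxcr4 passed at -1.71. Lyz2 ranged from 78.5 to 450 CPM, wider than in control mice, with a log2 fold change of -0.47 (interval -1.01 to 0.07), and passed at -0.74 with limma voom and sample quality weights. Il1b, Cd40 and Ly6c2 had log2 fold changes of 0.09, -0.47 and -0.22, with intervals that span 0.

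With ponatinib at 3 mg/kg no gene of the 10 passed, where 3.14% of all genes passed the unadjusted cut-off and 0.0419% the adjusted one. None had an unadjusted p-value below 0.05 in edgeR, and limma voom with sample quality weights called Csf1 and Il1a, at log2 fold changes of -0.75 and -0.99. Log2 fold changes lay between -0.92 for Ccl2 and 0.16 for Ly6c2, with a median of -0.49 and 9 of 10 below 0. Ccl2 measured 1.68, 3.08 and 6.67 CPM, and Il1a 1.86, 6.52 and 15.1 CPM.

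Nilotinib at 10 mg/kg (5.97% of all genes past the unadjusted and 1.41% past the adjusted cut-off) and at 30 mg/kg (9.35% and 5.77%) left all 10 genes short of the cut-off, by edgeR and by every other fit. Ccr2 was the one gene with an unadjusted p-value below 0.05 with nilotinib 10 mg/kg, at 2.57, 9.48 and 28.4 CPM and a log2 fold change of 0.86 (95% confidence interval 0.04 to 1.68). In these mice Ccr2 spread over a wide range, with 21.7 and 28.4 CPM in the highest pair. No gene had one with nilotinib 30 mg/kg. The 10 genes together had a median log2 fold change of 0.27 at the lower dose of nilotinib and 0.05 at the higher.

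L-NAME also left all 10 genes short of the cut-off in every fit, where 14% of all genes passed the unadjusted and 11.8% the adjusted cut-off, and none had an unadjusted p-value below 0.05 in edgeR. Il1b measured 2.62, 4.63 and 19.4 CPM with L-NAME (log2 fold change 0.84, 95% confidence interval -0.06 to 1.74). Ly6c2 measured 1.33, 4.37 and 11.7 CPM (log2 fold change 1.31, interval -0.20 to 2.82). In 9 of 10 genes the log2 fold change was above 0, and Cx3cr1 was the exception at -0.67.

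Ponatinib and nilotinib were both given at 10 mg/kg in 1 drug gavage per day, the higher dose of ponatinib and the lower of nilotinib. In the paper, drug exposure was similar to that of patients at this nilotinib dose and well above it at this ponatinib dose. Drug and exposure therefore cannot be told apart in this pair. All 10 genes had log2 fold changes below 0 for ponatinib against nilotinib. At an adjusted p-value below 0.05, which 2.06% of all genes passed, Ccr2, Csf1 and Il1a were lower with ponatinib. Ccr2 measured 1.23, 3.12 and 5.66 CPM with ponatinib and 2.57, 9.48 and 28.4 CPM with nilotinib (log2 fold change -1.95, 95% confidence interval -2.80 to -1.09, adjusted p = 0.00855), and did not pass with limma voom. Csf1 lay lower in all 8 ponatinib mice than in every nilotinib mouse (log2 fold change -1.05, interval -1.60 to -0.50, adjusted p = 0.0238). Il1a did so in 6 of 8 mice (log2 fold change -1.30, interval -1.996 to -0.61, adjusted p = 0.0277). In a fit of these 2 groups alone, Ccr2 was left and Csf1 and Il1a did not pass. Ccl2, at a log2 fold change of -1.99 (interval -3.16 to -0.81), had an adjusted p = 0.0542. Il1b (interval -1.11 to 0.70), Ly6c2 (-2.08 to 0.95), Cd40 (-1.98 to 0.87) and Cxcr4 (-2.01 to 0.24) did not pass, and these intervals leave room for differences in either direction.

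**Figure D3:**
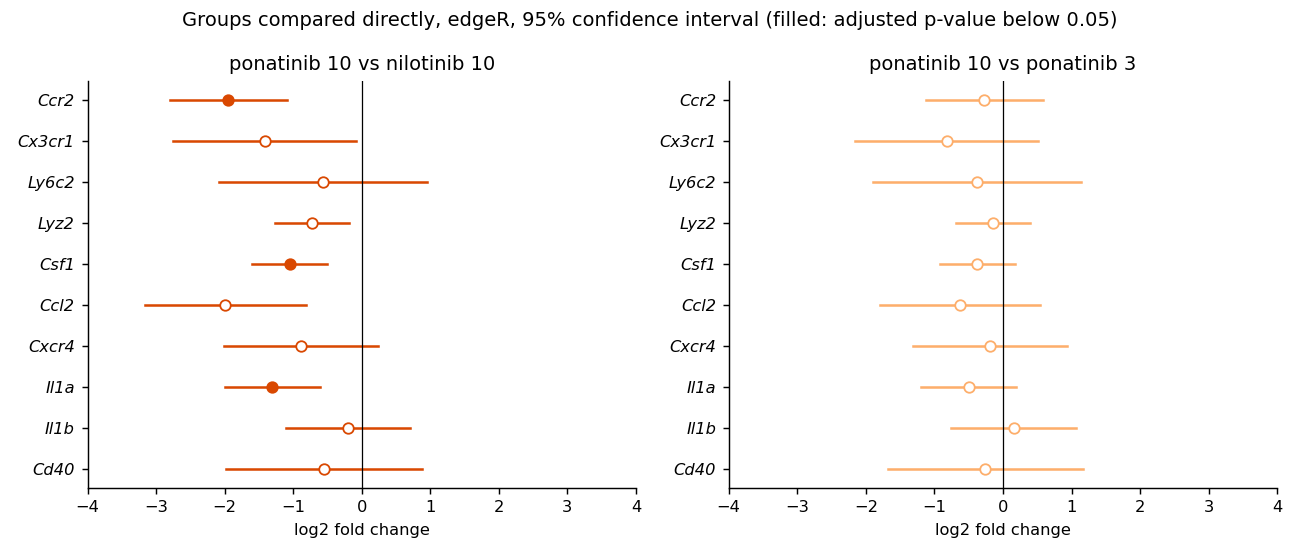
Log2 fold change of the 10 genes for ponatinib 10 mg/kg against nilotinib 10 mg/kg (left) and against ponatinib 3 mg/kg (right), with 95% confidence intervals (edgeR, 8 mice per group); filled points have an adjusted p-value below 0.05. Ccr2, Csf1 and Il1a are filled on the left and no gene on the right.

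In the other pairs of different drugs the doses in mg/kg did not match, and with imatinib neither did the number of drug gavages. Drug and dose cannot be told apart in those pairs either. The 2 doses of ponatinib and the 2 of nilotinib differed in dose alone. The comparisons between treated groups were 6 in number, with p-values adjusted over all genes within each. Between ponatinib 10 and 3 mg/kg no gene of the 10 passed in any fit (1.39% of all genes), nor had any an unadjusted p-value below 0.05 in edgeR, with intervals from -0.92 to 0.17 for Csf1 and from -1.19 to 0.19 for Il1a. Between nilotinib 30 and 10 mg/kg none of the 10 passed in any fit and none had an unadjusted p-value below 0.05, and 0% of all genes passed in edgeR. Imatinib against ponatinib 10 mg/kg gave no call among the 10 (1.08% of all genes), with 2 of them at an unadjusted p-value below 0.05 in edgeR, and Lyz2 came closest at a log2 fold change of -0.96 (adjusted p = 0.0678). It passed there without the ponatinib mouse that stood low in Csf1 (-1.04) and when reads outside genes were modelled as a covariate (-0.998). Imatinib against nilotinib 30 mg/kg (3.59% of all genes) gave 2 calls, Lyz2 (log2 fold change -1.70, adjusted p = 0.000101) and Cxcr4 (-2.18, adjusted p = 0.0222), both lower with imatinib. Cxcr4 did not pass in the fit of these groups alone (-2.17), in which Cd40 fell under the low-count filter, and DESeq2 added Ccl2 (-1.87) and Cd40 (-2.11). Ponatinib 10 against nilotinib 30 mg/kg (1.88% of all genes) gave none in edgeR, with 6 of the 10 at an unadjusted p-value below 0.05, and 2 with DESeq2, Ccr2 at -1.45 and Il1a at -1.11.

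The genes around these 10 were taken from fixed lists, which also were drawn up with earlier results of these data known. At the unadjusted cut-off used for them, 12.9% of all genes passed with imatinib and 15% with ponatinib 10 mg/kg. Of 12 tested ligands, receptors and processing partners, Csf1r, the receptor of Csf1, was lower with imatinib (log2 fold change -0.76 ± 0.25 SE, adjusted p = 0.0386) and none with ponatinib 10 mg/kg. The ligands Cxcl12 (-0.03) and Il34 (0.13) and the interleukin-1 receptor Il1r1 (-0.15) did not pass with imatinib. Over the 12 partners the median was -0.62, and 11 lay below 0. Cx3cl1, the ligand of Cx3cr1, did not pass with imatinib (-1.46). It passed the unadjusted cut-off with ponatinib 3 mg/kg (-1.94, adjusted p = 0.274). Of 22 monocyte and macrophage genes tested, 10 were lower with imatinib and none higher, among them Cybb, a subunit of the phagocyte NADPH oxidase (-1.69 ± 0.29 SE, adjusted p = 7.29e-05), Irf8, a transcription factor of monocytes (-1.01 ± 0.24 SE, adjusted p = 0.00312), and the Fc receptors Fcgr3 (-1.23) and Fcgr1 (-1.16). Spi1, which encodes PU.1, was lower too (-0.90 ± 0.29 SE, adjusted p = 0.0375). With ponatinib 10 mg/kg Cd68 (-0.81) and Irf8 (-0.73) were lower and Cebpb (0.82) higher, the last with an adjusted p = 0.0517. These 3 of 22 lay near the share of all genes. The median of the 22 was 0.009 with ponatinib 10 mg/kg, with 11 below 0, against -0.84 for the 10 genes.

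Of 7 genes of lipid-laden macrophages, 5 were lower with imatinib and 3 with ponatinib 10 mg/kg. Spp1 (0.11 with imatinib and -0.10 with ponatinib 10 mg/kg) and Cd9 (-0.29 and 0.15) passed with neither. Gpnmb decreased from 108 ± 90.4 CPM in control mice (SD, n = 8) to 4.08 ± 2.92 CPM with imatinib (log2 fold change -4.74 ± 0.79 SE, adjusted p = 4.07e-05) and to 5.03 ± 4.48 CPM with ponatinib 10 mg/kg (-4.40 ± 0.77 SE, adjusted p = 7.46e-05). It was also lower with ponatinib 3 mg/kg (-3.59 ± 0.73 SE, adjusted p = 0.0248), in which none of the 10 genes passed. Trem2 (-2.02) and Lgals3 (-1.46) were lower with imatinib, and Mmp12 was lower with imatinib (-2.45) and ponatinib 10 mg/kg (-2.64). Mmp12 also passed the unadjusted cut-off with ponatinib 3 mg/kg (-2.48, adjusted p = 0.176). Of 17 other cytokines and chemokines tested, 4 were lower with imatinib (Cxcl16, Cxcl10, Ccl6 and Cxcl9) and 3 with ponatinib 10 mg/kg (Cxcl10, Cxcl16 and Cxcl2). The 3 of 17 with ponatinib 10 mg/kg lay near the 15% of all genes. Tnf, at 0.762 CPM in control mice, passed in neither.

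The pan-leukocyte genes Ptprc, Laptm5 and Cd53 were lower with imatinib (log2 fold changes -0.98, -1.14 and -1.08), whereas Coro1a (-0.49) did not pass, and none of the 4 passed with ponatinib 10 mg/kg. Their summed level was 55.1 to 108 CPM in imatinib mice, 61.8 to 221 CPM in ponatinib 10 mg/kg mice and 90.4 to 215 CPM in control mice. Each of the 10 genes was also set against this sum. The log2 ratio of gene to pan-leukocyte sum differed from control in none of 60 tests after adjustment (exact permutation test of the difference in means, two-sided, smallest adjusted p = 0.242), and 9 had an exact unadjusted p-value below 0.05. For Lyz2 with imatinib the ratio differed by -0.41 (exact permutation test, p = 0.0392), and for Cxcr4 by -1.13 (exact permutation test, p = 0.0242). Of the other genes called with imatinib, Ccl2 had a ratio difference of -0.83 (exact permutation test, p = 0.13) and Cd40 one of -0.61 (exact permutation test, p = 0.0824). For Il1a, whose log2 fold change was -1, the ratio differed by -0.035 (exact permutation test, p = 0.911). For Csf1 it was higher by 0.49 (exact permutation test, p = 0.00513). With ponatinib 10 mg/kg the ratio differed by -0.73 for Il1a (exact permutation test, p = 0.0462) and by -1.17 for Cx3cr1 (exact permutation test, p = 0.0151).

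**Figure D4:**
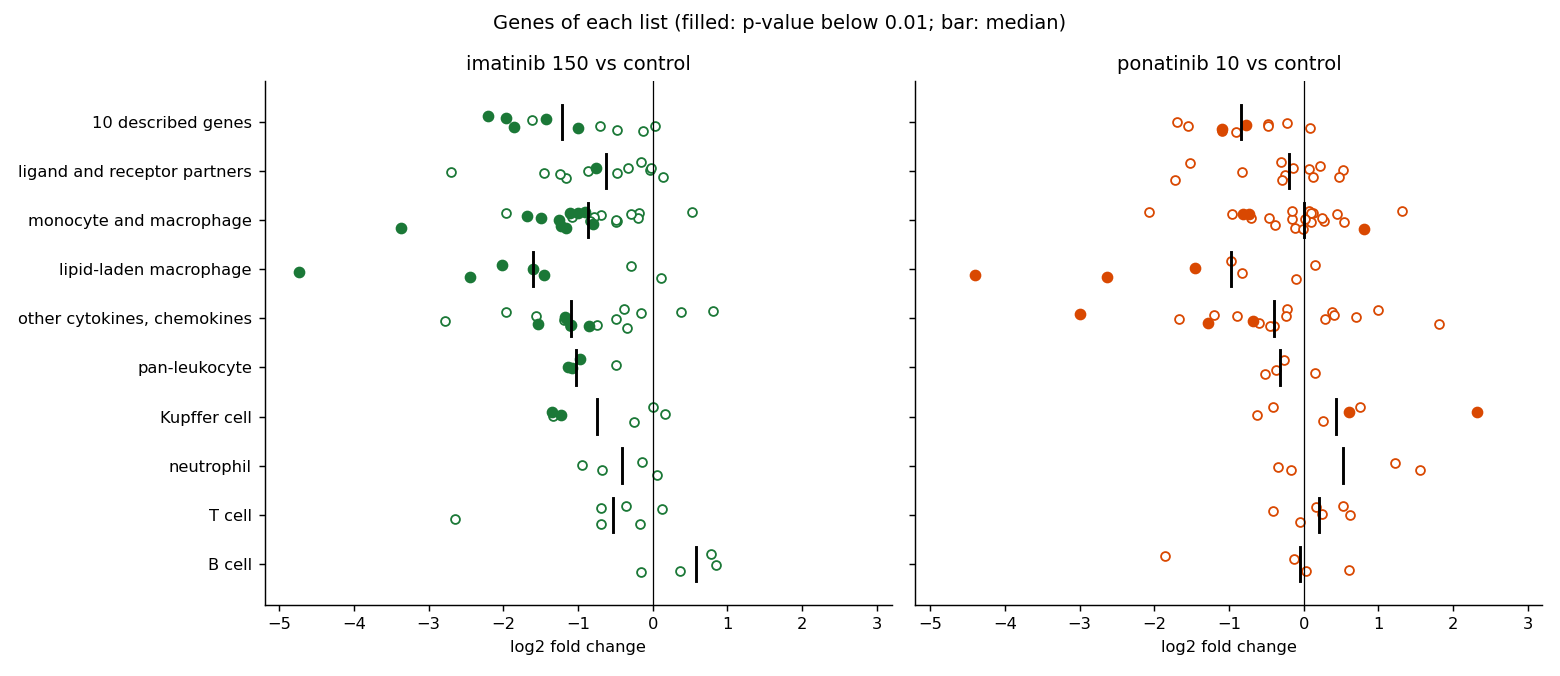
Log2 fold change against control of each tested gene in 10 lists, with imatinib (left) and ponatinib 10 mg/kg (right); filled points have an unadjusted p-value below 0.01 and bars mark list medians. The median of the 10 described genes is -1.22 on the left and -0.84 on the right, and that of the pan-leukocyte list is -1.03 and -0.31.

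Markers of resident and other cells were read beside these values. Of 6 Kupffer cell genes, Cd5l (log2 fold change -1.23) and Adgre1 (-1.35) were lower with imatinib. Marco (-1.34), Vsig4 (-0.25), Clec4f (0.17) and Timd4 (0.01) did not pass. The median of the 6 was -0.74 with imatinib, with 4 below 0. With ponatinib 10 mg/kg Marco (2.32) and Clec4f (0.61) were higher. Marco was also higher with ponatinib 3 mg/kg (2.01). Clec4f was higher in every treated group but imatinib: nilotinib 10 mg/kg (0.56), nilotinib 30 mg/kg (0.64), ponatinib 3 mg/kg (0.57) and L-NAME (0.69) as well. The summed level of the 6 was 345 to 762 CPM with imatinib, 346 to 1960 CPM with ponatinib 10 mg/kg and 650 to 1319 CPM in control mice. No neutrophil, T cell, NK cell or B cell gene passed in either group, and their sums stayed low, at most 38.1 CPM in any control, imatinib or ponatinib 10 mg/kg mouse, and Ly6g, which marks neutrophils, had no read in 52 of 56 mice. Of the dendritic cell genes Xcr1 was lower with imatinib (-3.26, adjusted p = 0.0751) and none passed with ponatinib 10 mg/kg, and no endothelial or cholangiocyte gene passed in either. The hepatocyte gene Alb did not pass with imatinib or ponatinib 10 mg/kg (0.01 and 0.10). Cps1 was lower with imatinib (-0.92) and ponatinib 10 mg/kg (-0.86), and Ttr was higher (0.45 and 0.73). Cps1 was also lower with nilotinib 10 mg/kg (-0.81), nilotinib 30 mg/kg (-0.87) and L-NAME (-0.90). Ttr was also higher with nilotinib 30 mg/kg (0.42), ponatinib 3 mg/kg (0.38) and L-NAME (0.40). Among stellate cell genes Col1a1 and Col3a1 were lower with imatinib (-3.03 and -2.60) and ponatinib 10 mg/kg (-2.78 and -1.92). Both were also lower with ponatinib 3 mg/kg (-2.31 and -1.63), and Col1a1 with L-NAME (-1.24). The part of any of these in the values of the 10 genes was not tested.

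Across mice, after the group means were subtracted, the 10 genes rose and fell together only in part. The 45 pairs had a median Pearson r of 0.294 over 56 mice, from -0.0186 for Cx3cr1 and Cxcr4 to 0.599 for Il1a and Cd40, and 43 pairs lay above 0. Lyz2 had the highest median r with the other 9 genes (0.406) and Il1b the lowest (0.169). The genes whose pattern was most like the mean of the 10 were Tmsb4x (r = 0.823), Ctss (0.804), Cyba (0.794), Sirpa (0.779) and Rac2 (0.778). These correlations are descriptions, since all genes of a mouse share its library and depth.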

How the data were processed

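Poly(A) RNA of liver was sequenced in 56 mice, 8 per group. The authors aligned reads to GRCm38 with TopHat2 2.0.14 and Bowtie2 2.1.0 and deposited raw counts per gene from HTSeq 0.6.1p1, per the labels and the submitters' processing notes; 5 summary lines per file, 38.9 to 49.8% of reads, name no gene and were left out of library sizes. Of 45513 identifiers, 44585 matched GENCODE vM21. Counts were scaled by TMM and tested with edgeR 4.0.16 (R 4.3.3), quasi-likelihood, in 1 fit of 56 mice after filterByExpr. Genes were called against control at an unadjusted p-value below 0.01, the threshold of the study, and between treated groups at a Benjamini-Hochberg adjusted p-value below 0.05. Ratios used a pseudocount of 0.5 CPM and exact permutation tests, with 8 mice against 8 allowing no p below 0.000155. limma 3.58.1 and DESeq2 1.42.0 were alternatives. Scripts were tested on simulated data. By name stand the 10 genes and the 5 non-members most like their mean. Up to 4 list genes with the smallest p-values called with imatinib or ponatinib 10 mg/kg are named as well. Cxcl12, Cx3cl1, Il34, Il1r1, Spi1, Tnf, Clec4f, Timd4, Vsig4, Spp1, Cd9 and Alb were added as known partners or markers after their values were seen. The 10 genes and the lists were chosen with earlier results of these data known. The range of depth over all mice is given with the results. Counted reads ranged from 7696730 to 17996732 in control mice and from 7101060 to 10864365 in imatinib mice. Counting error is largest for Cd40 and Ly6c2. The replicates are separate mice.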

Additional observations from a re-analysis of the deposited data

Results flagged for a closer look

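In each group of 8 mice the highest and lowest value of each of the 10 genes was compared with its nearest neighbour, and 6 of 70 sets held a mouse that stood apart (Dixon's test, 95% critical value). A rate of about 1 in 20 by chance holds for normally distributed values, which CPM need not be. Csf1 was 2.04 CPM in 1 ponatinib 10 mg/kg mouse, where the next was 14.9 CPM; without this mouse Csf1 no longer passed. Lyz2 was 160 CPM in 1 imatinib mouse (next 96.8 CPM) and 450 CPM in 1 ponatinib 10 mg/kg mouse (next 248 CPM). A single nilotinib 30 mg/kg mouse held the highest Csf1, 46.1 CPM (next 27.6 CPM), and the highest Cd40, 6.32 CPM (next 2.67 CPM). Il1b was 9.85 CPM in 1 imatinib mouse (next 4.62 CPM).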

How the results depend on the processing

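No result changed direction with a call in any alternative. The number of the 10 genes called with imatinib stayed between 4 and 7, and none was called with nilotinib or L-NAME in any fit. With ponatinib 10 mg/kg against control it was 2, and 4 without a filter on low counts, 5 with DESeq2, 4 with limma voom, 1 with reads outside genes as a covariate and 1 without the mouse that stood low in Csf1 (replicate 18). With ponatinib 3 mg/kg it was 0, and 2 with sample quality weights. Against nilotinib 10 mg/kg, ponatinib 10 mg/kg had 3 and, with only the 2 groups fitted, 1. Imatinib against nilotinib 30 mg/kg had 2, and 4 with DESeq2 and 1 with only the 2 groups fitted; imatinib against ponatinib 10 mg/kg had 0, and 1 with that covariate and 1 without replicate 18; ponatinib 10 against nilotinib 30 mg/kg had 0, and 2 with DESeq2 and 1 with sample quality weights. The cause of these changes was not tested. With all reads in the file as denominator, the share outside annotated genes with ponatinib 3 mg/kg differed by 0.356 percentage points and no longer passed. The fits without 3 single libraries were chosen after seeing the data; leaving out nilotinib 10 replicate 3 changed no call of the 10 genes, and leaving out L-NAME replicate 10 added Ccl2 with ponatinib 10 mg/kg. Cx3cr1, Ly6c2 and Cd40 had no read in 4 to 7 mice, so small changes in them were not detectable at this depth.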
